A study of Mus musculus with 6 samples.

Results

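The genes described here make cholesterol and fatty acids and control that synthesis. They are 28 of 45706 genes counted in the LSK compartment (Lin- Sca-1+ c-Kit+), the part of the bone marrow that holds the hematopoietic stem cells and the earliest progenitors. The genes were listed by name, with earlier results of these data known, in 4 roles: 6 enzymes of the mevalonate arm (Hmgcs1, Mvk, Pmvk, Mvd, Idi1, Fdps), 11 enzymes of the sterol arm (Fdft1, Sqle, Lss, Cyp51, Tm7sf2, Msmo1, Nsdhl, Hsd17b7, Ebp, Sc5d, Dhcr7), 6 SREBP regulators (Srebf1, Srebf2, Insig1, Insig2, Scap, Stard4) and 5 lipogenic enzymes (Acaca, Acly, Fasn, Scd1, Scd2). All 28 passed the filter on low counts. RNA-seq libraries were made from sorted LSK cells of male C57BL/6 mice (strain as labelled, C57BL/6J in the study's methods), 1 library per mouse and 3 mice per group. Ctrl mice carried 1 conditional and 1 wild-type Setd1b allele, labelled Setd1b HET (FD/+; RC/+). The cKO mice carried the conditional allele on both chromosomes and were labelled Setd1b HOM (FD/FD; RC/+). Both groups carried RC/+, a tamoxifen-inducible Cre expressed from the ubiquitous Rosa26 locus, and both received tamoxifen by gavage in doses of 4.5 mg, the last one 3 days before the cells were taken. The labels and the study's methods differ on the number of doses. Recombination was therefore not limited to blood cells, and the controls were heterozygous for the recombined allele rather than wild type. The mice were 16 weeks old, apart from cKO 3 at 17 weeks.

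Cholesterol synthesis starts from acetyl-CoA. The mevalonate arm builds farnesyl diphosphate, which also feeds prenylation and ubiquinone, and the sterol arm turns farnesyl diphosphate into squalene, lanosterol and, through demethylation, isomerization and reduction, cholesterol. When sterol is scarce in the endoplasmic reticulum, SCAP escorts SREBP to the Golgi, where it is cleaved into an active transcription factor. INSIG proteins hold SCAP back when sterol is plentiful. SREBP-2, the product of Srebf2, acts mainly on cholesterol genes, and SREBP-1, the product of Srebf1, mainly on fatty acid synthesis. Acly supplies cytosolic acetyl-CoA, Acaca converts it to malonyl-CoA, Fasn builds palmitate, and the Scd enzymes introduce a double bond into saturated fatty acyl-CoA. Most genes of the sterol pathway are SREBP targets and tend to move together when the sterol supply changes.

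Between 13003573 and 21277519 reads were counted on genes in the Ctrl libraries, and between 14260925 and 15265730 in the cKO libraries. Library numbers in the table's header fall into 2 series, the first with Ctrl 1, cKO 1 and cKO 2 and the second with Ctrl 2, Ctrl 3 and cKO 3. No other source states such series, the mouse names do not follow them, and in each series 1 genotype has a single library, so that values within a series carry no replicate check. Counts over the whole of Setd1b went against the labels, since they were higher in every library labelled cKO. The level rose from a Ctrl mean of 213 ± 16.2 to 292 ± 21.1 CPM (counts scaled to library size with TMM factors; SD over 3 mice each). In edgeR this was 0.46 on the log2 scale, with an SE (standard error) of 0.073 and an adjusted p of 0.0015. Counts per gene do not show the deleted exon separately. The groups are therefore used as labelled, and "cKO" stands for the libraries labelled cKO throughout. Kit, which defines the gate, lay between 395 and 514 CPM in all 6 libraries. Transcripts used as markers of other cell types differed between the groups, although the gate removes lineage-positive cells. In the study's account, many genes of this kind are also expressed at low levels in stem and progenitor cells. Summed over the fixed lists, granulocyte and monocyte markers lay at 2941 to 3547 CPM in Ctrl and 534 to 846 CPM in cKO, with 8 of 9 tested genes lower. Erythroid markers lay at 115 to 157 CPM against 37.4 to 46.2 CPM (3 of 5 lower), mast cell and basophil markers at 54.0 to 59.6 CPM against 18.4 to 25.9 CPM (2 of 4 lower), and B cell markers at 211 to 449 CPM against 88.4 to 137 CPM (2 of 3 lower). T and NK cell markers lay at 44.5 to 60.8 CPM against 27.6 to 34.9 CPM (1 of 2 lower), megakaryocyte markers at 134 to 167 CPM against 119.8 to 154 CPM (1 of 5 lower), and stromal, endothelial and adipocyte markers at 10.2 to 18.0 CPM against 10.5 to 14.9 CPM (1 of 3 lower). Apart from the granulocyte and monocyte list, each of these lists also held tested markers with fitted log2 fold changes above 0, none past the threshold. The largest was 0.81 for T and NK cell, 0.59 for erythroid, 0.34 for stromal, endothelial and adipocyte, 0.22 for megakaryocyte, 0.16 for B cell and 0.15 for mast cell and basophil markers. Over all genes tested, 3.79% were called lower. Cd79a, Ms4a1, Cd3d, Cd3e, Cd8a, Lepr and Plin1 had at most 10 counts in every library, and Cidec was at 0. LSK markers lay at 1752 to 1974 CPM in Ctrl and 1808 to 1919 CPM in cKO (1 of 8 higher, Mecom). The part of these transcripts in the results was not tested, and fewer cells of a type and less RNA per cell cannot be told apart.

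The comparison of cKO with Ctrl asks how loss of the second Setd1b allele changes expression in LSK cells. For the 28 genes the differences were small. Stard4, which encodes a carrier of cholesterol between membranes, rose 1.29-fold and was the only member past an adjusted p of 0.05 (edgeR quasi-likelihood test, Benjamini-Hochberg over 15184 genes). None fell past the threshold, and DESeq2 also called Stard4 alone. Over all genes tested, 7.67% were called, 3.88% as higher and 3.79% as lower. The single call among the 28 members (3.57%) is too few to set the members apart from these shares. With an unadjusted p under 0.05 there were 6 members (Hmgcs1, Cyp51, Srebf2, Insig1 and Stard4 with higher, Fasn with lower values in cKO), which is 21.4% against 22.9% of all genes tested. The direction was less even than the calls. The fitted log2 fold change was above 0 for 20 of 28 genes (71.4%, against 50.1% of all genes tested) and for 15 of the 17 enzymes of the mevalonate and sterol arms (88.2%). The median was 0.19 over the 28 genes and 0.00023 over all genes tested. Without cKO 3 the median over the 28 genes was 0.089, with 17 genes above 0 and 12 of the 17 enzymes. These counts describe genes that share regulators and libraries and are not independent observations.

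**Figure D1:**
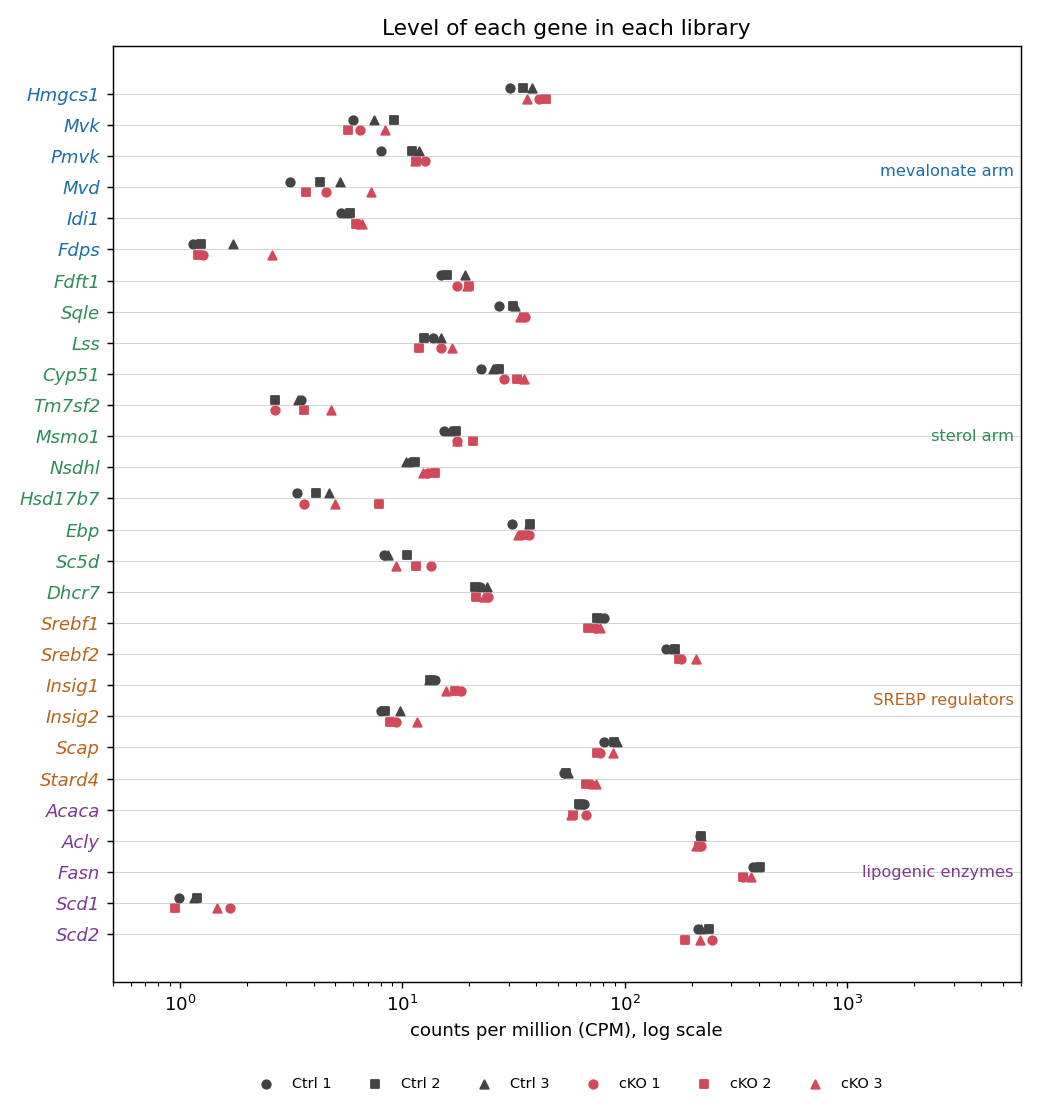
Level of each of the 28 genes in each of the 6 libraries, in CPM on a log axis, with Ctrl libraries in grey and cKO libraries in red and gene names coloured by role. Stard4, at 53.3 to 55.5 CPM in Ctrl and 66.8 to 74.0 CPM in cKO, shows a clear gap between the groups, while the points of most other genes lie close together or overlap.

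The cKO values lay wholly above the Ctrl values for 8 members (Idi1, Sqle, Cyp51, Msmo1, Nsdhl, Srebf2, Insig1, Stard4) and wholly below for 1 (Fasn). The share above was 28.6%, against 14.0% of all genes tested, and the share below was 3.57%, against 13.4%. The remaining 19 members overlapped. Library Ctrl 1, with the fewest counts, was the lowest of the 6 libraries for 12 of the 17 enzymes (70.6%), against 15.8% of all genes tested. The highest library was always cKO 1 (4 enzymes, 23.5%), cKO 2 (5, 29.4%), cKO 3 (6, 35.3%) or Ctrl 2 (2, 11.8%). Over all genes tested these libraries were highest for 14.5%, 14.7%, 19.8% and 16.9%.

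**Figure D2:**
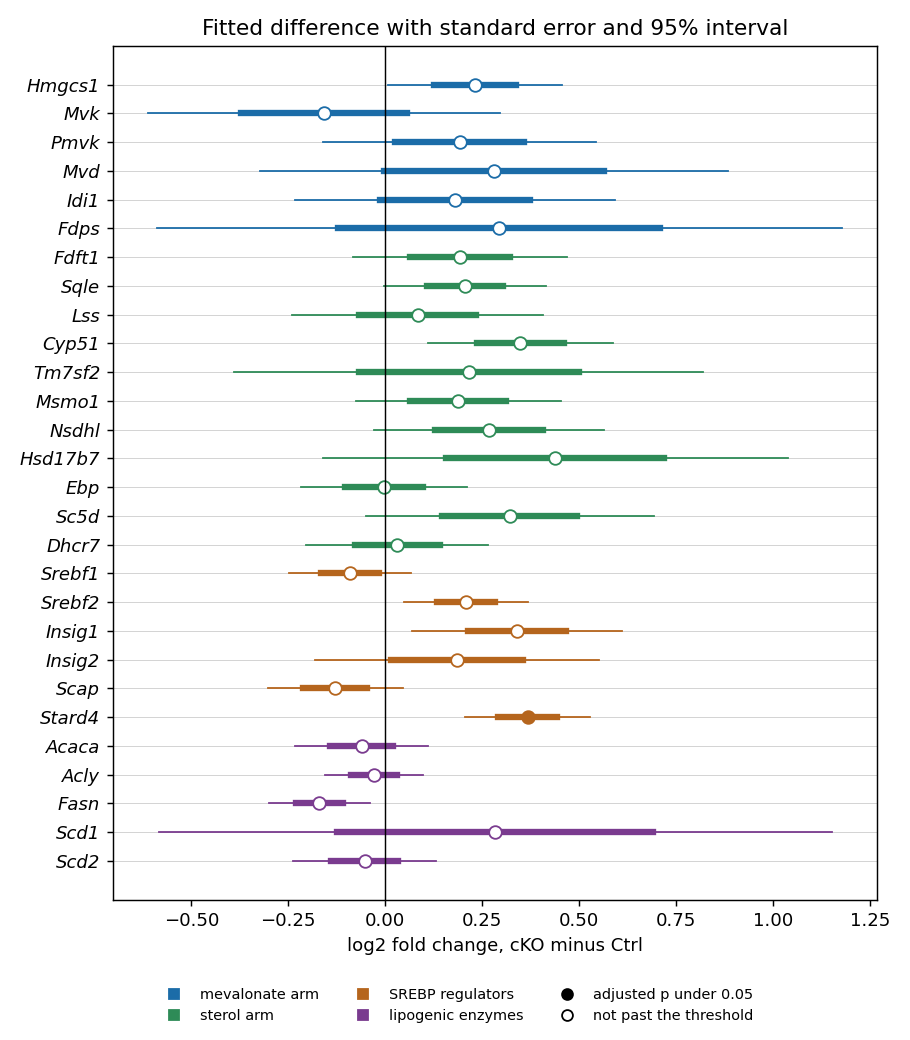
Fitted log2 fold change (cKO minus Ctrl) of each gene, with thick bars for 1 standard error and thin bars for the 95% confidence interval. Stard4 is the only filled point (adjusted p under 0.05), and 15 of the 17 enzymes of the mevalonate and sterol arms lie to the right of 0, most with intervals that include it.

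In the mevalonate arm no gene changed past the threshold by edgeR or DESeq2, and 1 of 6 (Hmgcs1) had an unadjusted p under 0.05. The fitted values were above 0 for 5 of the 6 genes, with a median log2 fold change of 0.21. Hmgcs1 encodes the synthase that makes HMG-CoA, the precursor of mevalonate. Its levels were 30.5, 34.7 and 38.1 CPM in Ctrl 1 to 3 and 41.3, 44.0 and 36.2 CPM in cKO 1 to 3. Both cKO libraries of the first series exceeded every Ctrl library, and cKO 3 fell between Ctrl 2 and Ctrl 3. The log2 fold change was 0.23 (SE 0.105, adjusted p = 0.20, edgeR), but it was 0.48 within the first series and -0.0063 within the second. Idi1, the isopentenyl diphosphate isomerase, was the only gene of this arm without overlap. Its levels were 5.28, 5.82 and 5.63 CPM in Ctrl and 6.23, 6.16 and 6.59 CPM in cKO, for a log2 fold change of 0.18 (SE 0.19, adjusted p = 0.64, edgeR). Every cKO value exceeded every Ctrl value, yet the gap was small beside the counting error of a gene with 69 to 122 counts per library.

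Pmvk, which adds the second phosphate to mevalonate, was at 8.04, 11.01 and 11.8 CPM in Ctrl and 12.6, 11.5 and 11.4 CPM in cKO. Its difference (log2 fold change 0.19, SE 0.17) rested on the low Ctrl 1, as it was 0.58 in the first series and -0.0069 in the second. Mvk, the mevalonate kinase that acts just before Pmvk, was the only gene of the arm with a negative value, at -0.16 (SE 0.21). It ranged from 5.97 to 9.20 CPM in Ctrl and from 5.72 to 8.35 CPM in cKO, so that the groups overlapped along most of their range. Mvd, the decarboxylase that forms isopentenyl diphosphate, was at 3.14, 4.24 and 5.25 CPM in Ctrl and 4.56, 3.68 and 7.22 CPM in cKO (log2 fold change 0.28, SE 0.28), with its highest value in cKO 3. Fdps, which makes farnesyl diphosphate, was counted with only 15 to 37 reads per library. It lay at 1.15, 1.24 and 1.73 CPM in Ctrl and 1.27, 1.21 and 2.60 CPM in cKO (log2 fold change 0.29, SE 0.41), and without cKO 3 the sign turned (-0.15). The count of Fdps is uncertain, because 4 processed pseudogenes match its transcript at 95% identity or more, up to 98.9% over 1062 of 1382 bases, and Gm43738 on the same strand covers 26.7% of its exon bases.

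Summed over the 6 genes, the mevalonate arm lay at 54.1, 66.2 and 70.0 CPM in Ctrl and at 72.4, 72.3 and 72.3 CPM in cKO. The groups did not overlap, but the distance from Ctrl 3 to the cKO libraries was small beside the spread within Ctrl. The median log2 difference was 0.30 in the first series and 0.10 in the second. It moved from 0.21 to 0.13 without Ctrl 1 and to 0.053 without cKO 3.

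In the sterol arm, 10 of 11 genes had fitted values above 0, with a median log2 fold change of 0.21, and none passed the threshold by edgeR or DESeq2. Only Cyp51 had an unadjusted p under 0.05. The cKO values lay wholly above Ctrl for 4 genes, Sqle, Cyp51, Msmo1 and Nsdhl. Cyp51, the lanosterol demethylase that opens the removal of methyl groups from the sterol ring, was at 22.7, 27.2 and 25.7 CPM in Ctrl and 28.5, 32.7 and 35.2 CPM in cKO. All 3 cKO libraries exceeded the highest Ctrl library, and the difference was 0.43 in the first series (Ctrl 1 the only control) and 0.41 in the second (cKO 3 the only cKO). The log2 fold change was 0.35 (SE 0.112, 95% confidence interval 0.11 to 0.59, adjusted p = 0.072, edgeR). Cyp51 passed the threshold with no filter on low counts (adjusted p = 0.044) and with library series as a covariate (log2 fold change 0.42, adjusted p = 0.025), and not in the other settings, where adjusted p reached 0.23.

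Sqle encodes squalene epoxidase, the oxygen-dependent step that commits squalene to sterols. It was at 27.1, 31.3 and 32.2 CPM in Ctrl and 35.5, 35.3 and 33.8 CPM in cKO, so that the lowest cKO library stood just above the highest Ctrl library. The log2 fold change was 0.21 (SE 0.098, adjusted p = 0.22, edgeR), with 0.39 in the first series and 0.091 in the second. Nsdhl, which takes part in removing methyl groups from the sterol ring, was at 10.9, 11.3 and 10.4 CPM in Ctrl and 12.999, 14.0 and 12.3 CPM in cKO (log2 fold change 0.27, SE 0.139, adjusted p = 0.27). Msmo1, the methyl sterol monooxygenase of the same steps, was at 15.5, 17.4 and 16.4 CPM in Ctrl and 17.7, 20.8 and 17.7 CPM in cKO (log2 fold change 0.19, SE 0.12, adjusted p = 0.40). In both genes the groups stood apart by less than the range within cKO.

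Hsd17b7, the ketoreductase of these demethylation steps, had the largest fitted value of all 28 genes, 0.44, and a wide error (SE 0.28, adjusted p = 0.39, edgeR). It was at 3.37, 4.10 and 4.67 CPM in Ctrl and 3.62, 7.88 and 4.98 CPM in cKO, and only cKO 2 stood clear of the Ctrl range by much. Without a single library the value ranged from 0.082 to 0.67. Sc5d, the desaturase near the end of the pathway, was at 8.26, 10.5 and 8.57 CPM in Ctrl and 13.5, 11.5 and 9.40 CPM in cKO (log2 fold change 0.32, SE 0.17). Its difference was 0.58 in the first series and -0.016 in the second. Fdft1, squalene synthase, had 14.9, 15.8 and 19.1 CPM in Ctrl and 17.7, 19.9 and 19.4 CPM in cKO (log2 fold change 0.19, SE 0.13), with Ctrl 3 among the cKO values. A processed pseudogene, Gm6781, matches 1249 bases of the Fdft1 transcript at 97.4% identity. Only uniquely aligned fragments were counted, so reads that fit both equally could be missing.

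The other members of the sterol arm differed little. Ebp, the isomerase that shifts a double bond in the ring, had the highest Ctrl mean per length of the 17 enzymes and lay at 35.2 ± 3.58 CPM in Ctrl and 35.2 ± 2.01 CPM in cKO (SD, n = 3), with a 95% confidence interval of the log2 fold change from -0.22 to 0.21. Dhcr7, the reductase that completes cholesterol, was at 22.5 ± 1.45 and 23.0 ± 1.44 CPM (interval -0.20 to 0.27). Lss, which closes squalene epoxide into lanosterol, was at 13.7 ± 1.21 and 14.5 ± 2.50 CPM (interval -0.24 to 0.41). Tm7sf2, a sterol reductase, was at 3.19 ± 0.458 and 3.69 ± 1.05 CPM (interval -0.39 to 0.82), and Vps51 covers 15.3% of its exon bases on the same strand. These intervals leave room for changes of the size seen in Cyp51 for Lss and Tm7sf2, but not for Ebp or Dhcr7.

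Summed over its 11 genes, the sterol arm lay at 173, 192 and 196 CPM in Ctrl and 209, 214 and 211 CPM in cKO. The median log2 difference was 0.31 in the first series and 0.16 in the second, and it stayed between 0.15 and 0.25 when single libraries were left out. The 17 enzymes of both arms summed to 228, 258 and 266 CPM in Ctrl and 281, 286 and 283 CPM in cKO. The number with a fitted value above 0 was between 12 (without cKO 3) and 17 (library series as a covariate) over all settings.

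**Figure D3:**
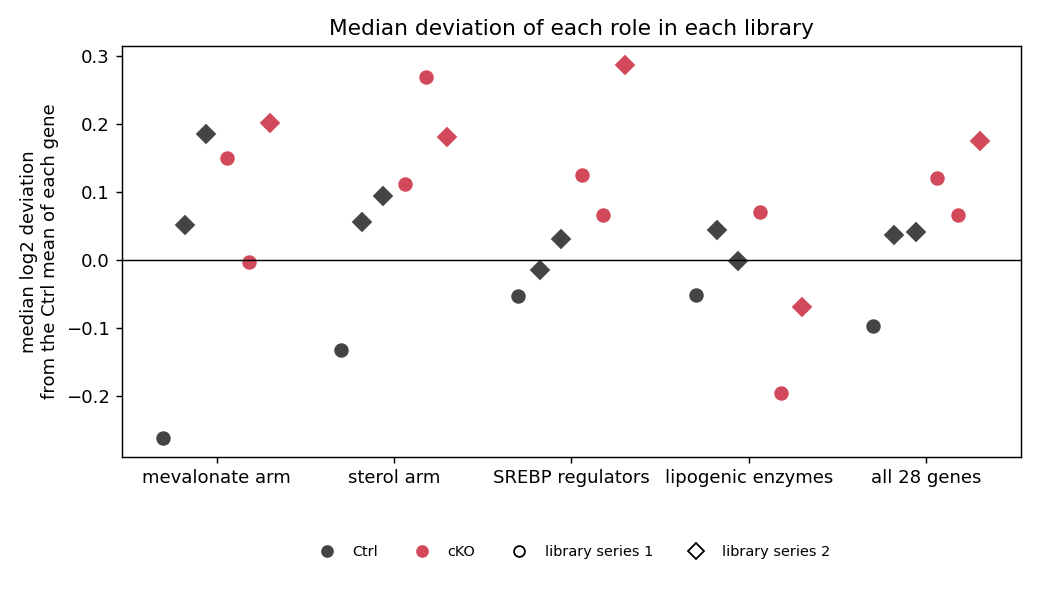
Median, over the genes of each role, of the log2 CPM deviation from the Ctrl mean of each gene, for each library (Ctrl 1 to 3, then cKO 1 to 3 from left; circles for library series 1, diamonds for series 2). Ctrl 1 lies lowest in the mevalonate arm (-0.26) and in the sterol arm (-0.13), and in the lipogenic enzymes the lowest library is cKO 2 (-0.20).

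Among the SREBP regulators, 1 of 6 genes rose past the threshold and none fell, with a median log2 fold change of 0.20 (0.19 in the first series and 0.28 in the second, and 0.089 without cKO 3). By unadjusted p under 0.05 there were 3 genes, Stard4, Insig1 and Srebf2, each with every cKO library above every Ctrl library. Stard4 (ENSMUSG00000024378, chromosome 18) encodes a START-domain protein that moves cholesterol between membranes and is itself induced by SREBP. It was at 53.3, 54.1 and 55.5 CPM in Ctrl and 69.4, 66.8 and 74.0 CPM in cKO. The Ctrl libraries agreed closely, and the lowest cKO library stood well above the highest of them. The log2 fold change was 0.37 (SE 0.076, 95% confidence interval 0.21 to 0.53, adjusted p = 0.0072, edgeR), with 0.35 in the first and 0.43 in the second series. Stard4 passed the threshold in all 14 other fits, with log2 fold changes of 0.31 to 0.40 and adjusted p between 0.0011 and 0.035. Its transcript matched no other transcript at 95% identity over 200 bases, and no annotated gene shares its exon bases.

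Srebf2 (ENSMUSG00000022463) was at 154, 168 and 166 CPM in Ctrl and 179.5, 175 and 209 CPM in cKO. The groups did not overlap, and cKO 3 stood well above the other cKO libraries. The log2 fold change was 0.21 (SE 0.075, 95% confidence interval 0.049 to 0.37, adjusted p = 0.11, edgeR). With library series as a covariate it was 0.27 (adjusted p = 0.017), and without cKO 3 it was 0.12 (adjusted p = 0.36). Insig1, which holds SCAP in the endoplasmic reticulum when sterol is plentiful and is itself an SREBP target, was at 14.1, 13.3 and 13.2 CPM in Ctrl and 18.4, 17.2 and 15.6 CPM in cKO. All 3 cKO libraries lay above the Ctrl libraries, with a log2 fold change of 0.34 (SE 0.127, 95% confidence interval 0.069 to 0.61, adjusted p = 0.12, edgeR) and 0.33 and 0.24 in the first and second series.

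The paralogue Insig2 was at 8.04, 8.39 and 9.79 CPM in Ctrl and 9.38, 8.83 and 11.6 CPM in cKO, with overlap (log2 fold change 0.19, SE 0.17). Srebf1 was at 80.96, 75.0 and 77.8 CPM in Ctrl and 73.4, 68.5 and 77.4 CPM in cKO (log2 fold change -0.091, SE 0.074, adjusted p = 0.52), and only cKO 1 and cKO 2 lay below the Ctrl range. Scap was at 80.96, 89.0 and 92.6 CPM in Ctrl and 77.0, 74.7 and 88.7 CPM in cKO (log2 fold change -0.13, SE 0.082, adjusted p = 0.38), with cKO 3 among the Ctrl libraries. Taken per length, as TPM, which divides by gene length, the ratio of Srebf2 to Srebf1 was 2.14, 2.53 and 2.41 in Ctrl and 2.76, 2.89 and 3.05 in cKO. This ratio was formed within each library, and the 2 groups did not overlap. The ratio of Insig1 to Insig2 did overlap, with 1.97, 1.77 and 1.51 in Ctrl and 2.20, 2.19 and 1.51 in cKO. The ratios were chosen after the values of these genes had been seen and carry no test.

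**Figure D4:**
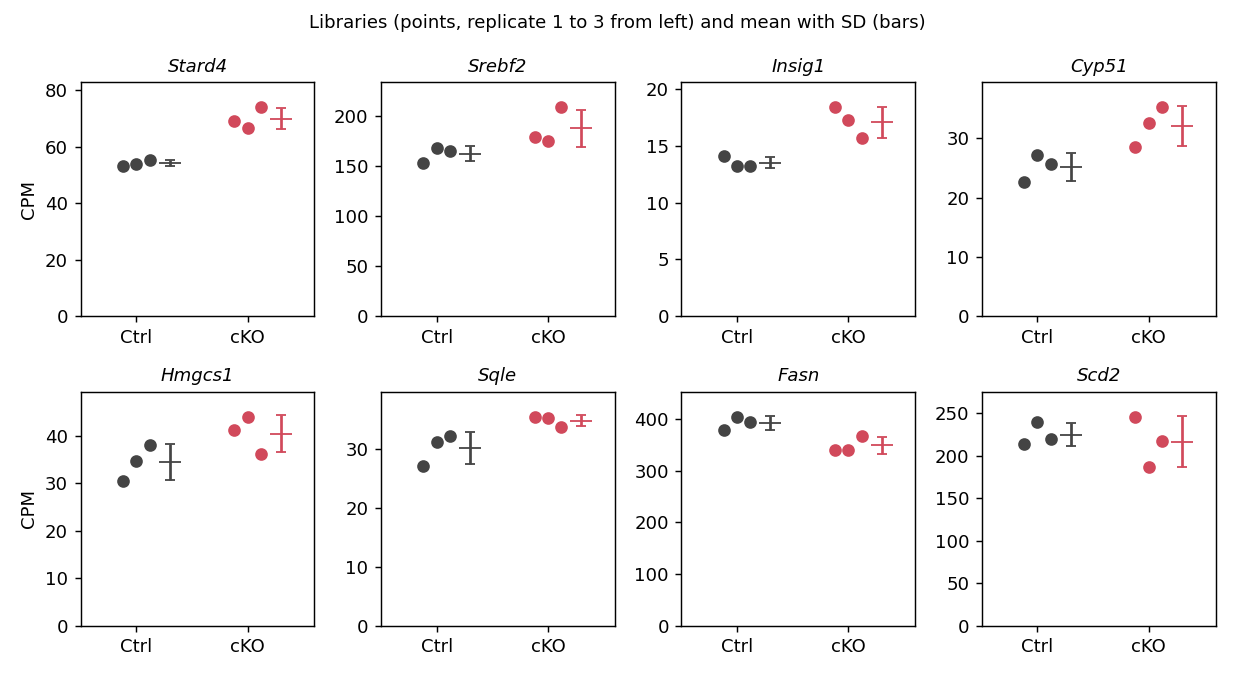
CPM of 8 of the genes in each library (points, replicates 1 to 3 from left) with the mean and SD of the 3 libraries, on axes that start at 0. Stard4, Srebf2, Insig1, Cyp51 and Sqle show no overlap with cKO above (Stard4 at 66.8 to 74.0 CPM, against 53.3 to 55.5 CPM), Fasn shows none with cKO below (339 to 368 CPM, against 378 to 404 CPM), and Hmgcs1 and Scd2 overlap.

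Promoter sequence was available from RefSeq (build GRCm38.p6) for 22 of the 28 genes, in 30 promoters; Fdps, Fdft1, Sqle, Stard4, Scd1 and Scd2 had no entry. The promoters of the members with an unadjusted p under 0.05 and an entry are printed here. The choice rests on that p alone, which 22.9% of all genes tested also reached. Hmgcs1 is printed although its groups overlapped, and Idi1, Msmo1 and Nsdhl, whose groups did not overlap, are not. Each line runs 5′ to 3′ up to the base before the RefSeq start, less any bases inside the gene model of the count table (49 for Cyp51, 3 for Srebf2 and 49 for Insig1). Capitals mark the letters searched: TCACNCCAC, a sterol regulatory element bound by SREBP, CCAAT, the box of NF-Y, a partner of SREBP on such promoters, CACGTG, an E-box, and GGGCGG, a GC box. Motifs on the other strand read as ATTGG and CCGCCC, and in Fasn a CCAAT and an ATTGG overlap. The windows are chr13:119690101-119690350 (+) for Hmgcs1, chr5:4104747-4104947 (-) for Cyp51, chr15:82147019-82147265 (+) for Srebf2, chr5:28071162-28071362 (+) for Insig1 and chr11:120824548-120824797 (-) for Fasn.
Hmgcs1: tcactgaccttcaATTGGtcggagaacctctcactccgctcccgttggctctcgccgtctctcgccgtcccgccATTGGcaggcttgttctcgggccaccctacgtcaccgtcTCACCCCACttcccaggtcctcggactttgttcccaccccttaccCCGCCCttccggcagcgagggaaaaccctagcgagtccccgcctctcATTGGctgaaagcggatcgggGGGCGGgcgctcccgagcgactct
Cyp51: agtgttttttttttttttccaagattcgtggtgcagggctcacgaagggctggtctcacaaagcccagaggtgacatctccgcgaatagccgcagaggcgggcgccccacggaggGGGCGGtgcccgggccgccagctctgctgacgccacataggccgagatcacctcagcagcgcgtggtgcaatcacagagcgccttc
Srebf2: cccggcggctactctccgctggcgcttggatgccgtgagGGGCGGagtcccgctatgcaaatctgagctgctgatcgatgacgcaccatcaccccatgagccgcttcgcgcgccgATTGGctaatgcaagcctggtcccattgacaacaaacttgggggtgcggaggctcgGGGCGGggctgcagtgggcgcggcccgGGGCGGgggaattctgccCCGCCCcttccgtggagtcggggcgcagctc
Insig1: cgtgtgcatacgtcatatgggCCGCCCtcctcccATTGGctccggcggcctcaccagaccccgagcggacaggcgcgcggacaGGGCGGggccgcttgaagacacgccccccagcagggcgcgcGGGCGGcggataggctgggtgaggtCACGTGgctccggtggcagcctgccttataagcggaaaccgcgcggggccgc
Fasn: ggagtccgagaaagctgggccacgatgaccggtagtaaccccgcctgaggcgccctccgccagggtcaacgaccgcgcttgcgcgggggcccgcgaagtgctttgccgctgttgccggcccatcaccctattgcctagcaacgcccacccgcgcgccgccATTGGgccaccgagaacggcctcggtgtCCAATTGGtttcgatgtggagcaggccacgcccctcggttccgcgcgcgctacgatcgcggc

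A gene was counted if any of its promoters held the letters. Over the 250 bases before the start and on both strands, the sterol regulatory element letters were found in 1 of the 22 members (4.5%), Hmgcs1, 129 to 137 bases before its start. The share was 1.22% of all 27025 genes with a promoter and 1.19% of the 9846 tested genes with a promoter. Only these fixed letters were searched, so a promoter without them may still hold a variant of the element. CCAAT was found in 19 of 22 members (86.4%), against 37.5% of all genes with a promoter and 40.3% of the 9846 tested genes with a promoter. The 3 members without it were Scap, Acaca and Acly. GGGCGG was also found in 19 members (86.4%), against 35.4% of all genes with a promoter and 63.4% of tested genes. CACGTG was found in 5 members (22.7%), Hsd17b7, Sc5d, Dhcr7, Insig1 and Scap, against 6.86% of all genes with a promoter and 9.91% of tested genes. Cyp51 holds its CCAAT 25 to 29 bases before the start, within the bases not printed. Mvk, Ebp, Srebf1 and Fasn, with fitted values under 0, hold CCAAT as well. Scap, Acaca and Acly, which lack it, also had fitted values under 0. A match of letters is not a binding site.

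The fitted values of the lipogenic enzymes were under 0 for 4 of 5, by small amounts. None of the 5 passed the threshold by edgeR or DESeq2, 1 (Fasn) had an unadjusted p under 0.05, and the median log2 fold change was -0.053 (between -0.13 without cKO 1 and -0.023 without cKO 3). Fasn, the synthase that makes palmitate, was at 378, 404 and 395 CPM in Ctrl and 339.8, 339 and 368 CPM in cKO. All 3 cKO libraries lay below the Ctrl libraries, with -0.16 in the first and -0.12 in the second series. The log2 fold change was -0.17 (SE 0.062, 95% confidence interval -0.30 to -0.038, adjusted p = 0.11, edgeR). Fasn, whose exons sum to 9849 bases, was called lower when each library's trend against gene length was removed (-0.25, adjusted p = 0.024) or that against GC content (-0.20, adjusted p = 0.040).

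Acly, ATP citrate lyase, was the steadiest gene of the group, at 218, 221 and 219 CPM in Ctrl and 220.0, 215 and 209 CPM in cKO. The 95% confidence interval of its log2 fold change (-0.029) was -0.16 to 0.096, narrow enough to leave out a change of the size seen in Stard4. Acaca, acetyl-CoA carboxylase, was at 65.6, 62.2 and 63.1 CPM in Ctrl and 66.8, 58.6 and 57.4 CPM in cKO (interval -0.23 to 0.11). A processed pseudogene, Gm5182, matches 6118 of the 9513 bases of the Acaca transcript at 99.2% identity. Scd2 was at 214, 239 and 219.7 CPM in Ctrl and 246, 186 and 217 CPM in cKO, so that cKO 1 and cKO 2 lay at opposite ends of all 6 libraries (interval -0.24 to 0.13). Scd1 was near the floor of detection, with 13 to 25 counts per library, and its log2 fold change of 0.28 had an SE of 0.41. Per length, Scd2 exceeded Scd1 179-fold in Ctrl and 145-fold in cKO (mean of the ratio over 3 libraries each). The 2 transcripts are 95.5% identical over 623 bases. Only uniquely aligned fragments were counted, so reads that fit both equally could be missing from both counts. Whether any Scd1 reads come from Scd2 was not tested. The paralogues Scd3 and Scd4 had at most 0.842 CPM in any library and were not tested. Summed over the 5 genes, lipogenic enzymes lay at 877, 928 and 898 CPM in Ctrl and 874, 800.5 and 853 CPM in cKO.

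Compared per length, the members spanned a wide range of levels in Ctrl. Acly (50.6 ± 6.41 TPM; SD, n = 3), Scd2 (50.2 ± 7.49 TPM), Fasn (48.6 ± 5.95 TPM) and Srebf2 (39.7 ± 4.55 TPM) formed the top, and their ranges overlapped from neighbour to neighbour. Srebf2 stood clear of the next gene, Ebp (18.5 ± 2.24 TPM), which was followed by Srebf1, Scap, Hmgcs1 and Stard4 (11.8 ± 1.28 TPM). A further gap separated Stard4 from Pmvk (7.24 ± 1.04 TPM). Most enzymes of the mevalonate and sterol arms lay between Pmvk and Lss (1.54 ± 0.127 TPM), and Tm7sf2, Hsd17b7, Fdps (0.390 ± 0.0344 TPM) and Scd1 (0.280 ± 0.0355 TPM) were lowest. The place of Fdps is uncertain, as processed pseudogenes match much of its transcript. Of the 27 pairs of neighbours in this order, 7 had Ctrl ranges that did not overlap and 20 overlapped. The order in cKO was nearly the same, with 14 genes at the same rank and the largest change of rank being 3. TPM levels were higher in cKO by a median of 0.078 (log2) over all genes tested, so the fold changes above, which use TMM scaling, are the measure of change.

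**Figure D5:**
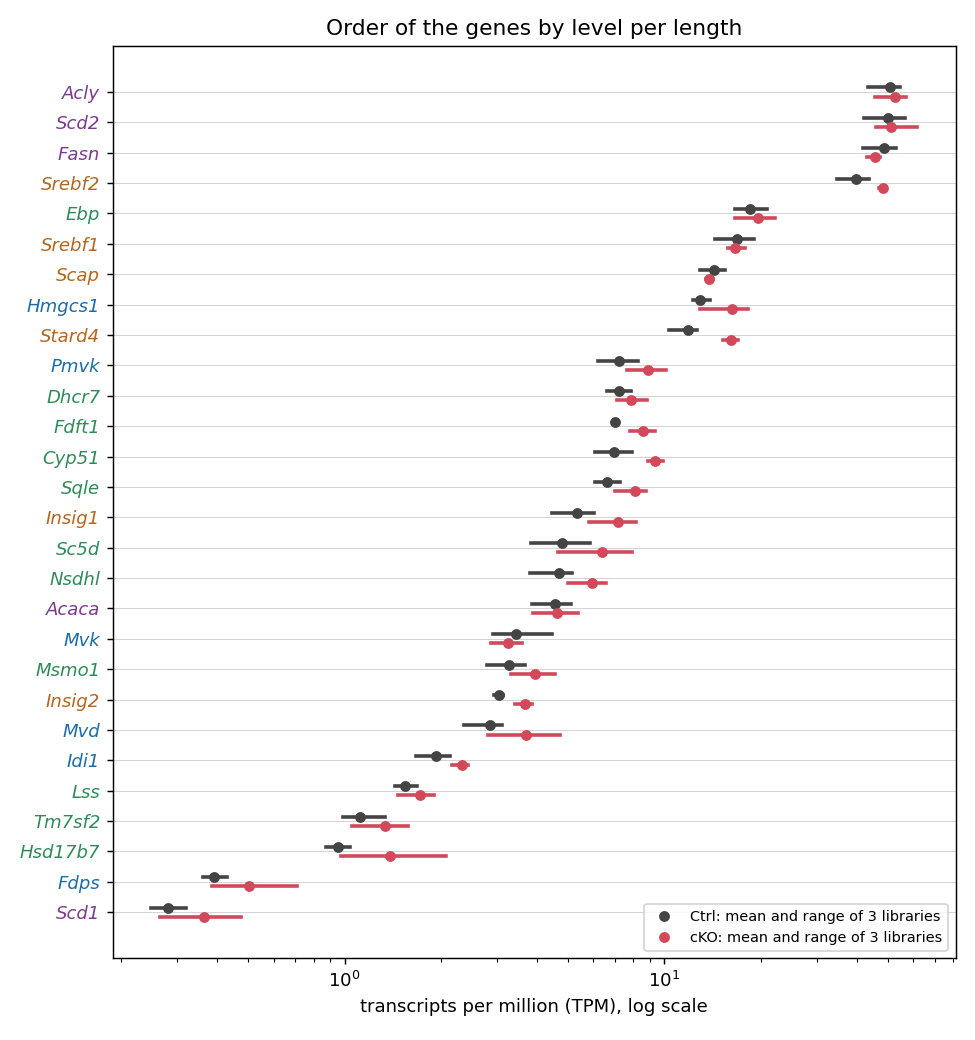
Level per length of the 28 genes, in TPM on a log axis, ordered by the Ctrl mean, with points for the mean and bars for the range of 3 libraries in each group. The lipogenic enzymes Acly, Scd2 and Fasn and the regulator Srebf2 lie at the top (39.7 to 50.6 TPM in Ctrl), apart from Ebp at 18.5 TPM, and Scd1 lies lowest at 0.280 TPM.

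In the genome (GRCm38, coordinates of the count table) the members lay on 14 chromosomes. The nearest members were Scd2 and Scd1 on chromosome 19, 87.6 kb apart, and Fdps and Pmvk on chromosome 3, 352.6 kb apart. The fitted log2 fold changes were -0.053 for Scd2 and 0.28 for Scd1, and 0.29 for Fdps and 0.19 for Pmvk, none of them past the threshold. Srebf1, Acaca, Acly and Fasn all lay on chromosome 11, at least 16074.7 kb apart, and each had a fitted value under 0. Ebp and Nsdhl lay on the X chromosome, and of these only Nsdhl stood apart between the groups.

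Genes around the pathway were read from fixed lists in the same fit. Over all genes tested, 7.67% were called and 22.9% had an unadjusted p under 0.05. No list was tested as a set. Of 15 genes of mevalonate entry and the isoprenoid branches, none passed the threshold by edgeR or DESeq2, 3 had an unadjusted p under 0.05, and the median log2 fold change was -0.083. Those 3 had lower values in cKO: Nus1, a subunit of the dehydrodolichyl diphosphate synthase (-0.30, adjusted p = 0.057), Pdss1, which makes the side chain of ubiquinone (-0.33, adjusted p = 0.086), and Rabggtb, a subunit of the enzyme that prenylates Rab proteins (-0.20, adjusted p = 0.17). Fitted values were under 0 for 9 of the 15 genes, beside 5 of 6 above 0 in the mevalonate arm. Whether the 2 lists differ was not tested.

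Of 22 genes of sterol processing, storage and efflux, 1 rose and 1 fell (9.09% called), with a median of 0.018. Gramd1a, which carries cholesterol from the plasma membrane to the endoplasmic reticulum, rose by 0.28 (log2; SE 0.075, adjusted p = 0.037, edgeR) from 113 ± 9.49 to 137 ± 7.84 CPM (SD, n = 3). Osbp, a sterol carrier at contacts with the Golgi, had -0.18 (adjusted p = 0.11). In this list 10 of the 22 genes had an unadjusted p under 0.05, spread over both directions. That is a larger share than the 22.9% of all genes tested.

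Of 23 tested genes (27 listed) of fatty acid supply, elongation and glycerolipid synthesis, 1 rose and 1 fell by edgeR (1 and 2 by DESeq2), with a median of -0.062. The share called by edgeR was 8.7%. Elovl7, an elongase of long fatty acids, was at 3.29, 4.39 and 3.52 CPM in Ctrl and 6.83, 6.80 and 8.07 CPM in cKO and rose by 0.94 (SE 0.22, adjusted p = 0.014, edgeR), a larger fitted value than that of any of the 28 members. Acsl5, an acyl-CoA synthetase, was at 173, 173 and 191 CPM in Ctrl and 132, 139 and 132 CPM in cKO and fell by 0.41 (SE 0.065, adjusted p = 0.0012). Lpin1, a phosphatidate phosphatase, had -0.36 (adjusted p = 0.058).

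Of 18 genes of fatty acid oxidation, 1 fell (5.56% called) and none rose, with a median of -0.10 and fitted values under 0 for 13. The gene that fell was Acaa2, the thiolase of the last step of the cycle (-0.34, SE 0.091, adjusted p = 0.037, edgeR; 50.01 ± 3.65 CPM in Ctrl and 39.7 ± 2.94 CPM in cKO; SD, n = 3). Hadha (-0.18, adjusted p = 0.11) and Hadhb (-0.34, adjusted p = 0.17), the subunits of the trifunctional protein, followed it. Of 18 proliferation genes, 1 fell by edgeR (5.56% called, none by DESeq2) and none rose, with a median of -0.045. This was the helicase subunit Mcm5 (-0.68, SE 0.19, adjusted p = 0.042), which was at 343, 347 and 361 CPM in Ctrl and 171, 330 and 155 CPM in cKO, with cKO 2 close to the Ctrl libraries. Ccna2 (-0.18, adjusted p = 0.12) and Mcm2 (-0.15, adjusted p = 0.14) did not pass the threshold.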

How the data were processed

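LSK cells were sorted, and stranded total RNA libraries were sequenced. The authors aligned reads with GSNAP to GRCm38 (mm10) and deposited whole-number counts per gene from featureCounts (1.5.0, Ensembl 81 gene models, strand-specific), without normalization, together with gene lengths. By the study's methods, only uniquely aligned fragments were counted. From these counts, CPM (TMM factors 0.945 to 1.03), TPM (deposited lengths) and edgeR 4.0.16 quasi-likelihood tests (R 4.3.3, filterByExpr, genotype only, Benjamini-Hochberg, threshold 0.05) were computed for all genes, of which 15184 passed the filter. Symbols came from GENCODE M21 (98.8% of genes). The test was checked on simulated data. Replicates are single mice and differed beyond sampling noise. A two-sided exact permutation test of 3 against 3 cannot go below p = 0.1. Near copies were found with BLAST 2.17.0 (95% identity, 200 bases), and promoters came from RefSeq. Other settings were DESeq2 1.42.0 and its size factors, 2 other count filters, library series as a covariate, loess removal of length or GC trends, no dominant transcripts, a threshold of 0.01 and leaving out each mouse. The members and lists were chosen with earlier results of these data known. All 28 members could be named, and up to 3 genes per other list, by adjusted p. Some items are not reported here.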

Additional observations from a re-analysis of the deposited data

How the results depend on the processing

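Of 406 refitted log2 fold changes (the 28 members and Setd1b), 387 kept their direction and side of the threshold. The number of genes higher in cKO was 589, between 296 and 531 with 1 mouse left out and 241 at a threshold of 0.01. The number lower was 575, between 308 and 594 with 1 mouse left out, 272 at a threshold of 0.01 and 873 with no filter on low counts, where more genes were tested. Members called higher were 1, but 2 with no filter (Cyp51 added) and 3 with library series as a covariate (Cyp51 and Srebf2 added). Members called lower were 0, but 1 (Fasn) after removal of the gene length trend and 1 (Fasn) after removal of the GC trend. The library series is read from library numbers alone, and the causes were not tested. The sign turned with library series as a covariate for Ebp (0.024) and Mvk (0.0095). With 1 mouse left out it turned within the ranges -0.082 to 0.046 for Ebp, -0.33 to 0.014 for Mvk, -0.15 to 0.49 for Fdps, -0.016 to 0.080 for Dhcr7, -0.035 to 0.21 for Lss, -0.041 to 0.48 for Mvd, -0.013 to 0.40 for Tm7sf2 and -0.15 to 0.045 for Scd2 (log2). No paired analysis was possible because the labels give no replicate number that pairs the mice. Low counts limit Fdps and Scd1, at 37 or fewer in each library. Near copies of the Fdps transcript leave its count uncertain at any depth.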
